A study of Homo sapiens with 6 samples.

Results

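The nuclear oxidative phosphorylation genes are the subunits of the 5 respiratory complexes that are encoded on the chromosomes, together with cytochrome c. They were picked by a rule on gene symbols, which uses no measured value, but the set was chosen with earlier results of these data known. Symbols ending in P and a number, the form used for pseudogenes, were left out. The rule found 88 of the 61806 genes of the table: 37 of complex I, 4 of complex II, 11 of complex III counted with cytochrome c, 17 of complex IV, which takes in NDUFA4, and 19 of complex V. Of these 88, 82 had a mean of at least 0.5 FPKM (counts scaled by exonic size and by the library's total) over the 6 libraries and were tested among 15870 genes. RNA was sequenced from U87-MG, an established human glioma line, in 3 libraries labelled NC (genotype wildtype) and 3 labelled GRIK1 siRNA (genotype GRIK1 knockdown). GRIK1 encodes a kainate-type glutamate receptor subunit, and the study asked which transcripts change downstream of it. The series text names an shRNA where the titles name siRNA. The study's methods list 3 siRNA sequences and its text takes the first of them forward, while the titles number the libraries 1 to 3 and do not say whether a number is a sequence or a repeat. Separate cultures are not stated, so p-values measure only the spread between these libraries, which may be technical. Agents used in the NC cells beyond that label, doses and times are not given either.

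The respiratory chain sits in the inner mitochondrial membrane. Complex I and complex II feed electrons from NADH and succinate to ubiquinone, complex III passes them to cytochrome c, complex IV hands them to oxygen, and complex V, the ATP synthase, uses the proton gradient built on the way. Most subunits are encoded in the nucleus and imported, whereas a small core is encoded by the mitochondrial genome, so that the complexes need transcripts from both. Glioma cells are known for high glycolysis alongside respiration.

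The libraries held 11099909 to 14006968 counts. GRIK1 had 18, 9 and 8 counts under the NC label and 15, 20 and 20 under the GRIK1 siRNA label, so its counts were not lower under the latter. At 0.13 to 0.38 FPKM it fell under the filter and was not tested, and so few counts cannot settle whether its level differed. The study reports an efficient GRIK1 knockdown in U87-MG cells, with the first siRNA sequence the most efficient. The mesenchymal glioma markers VIM, at 825 to 1080 FPKM, and CD44, at 50.8 to 71.6 FPKM, were high, whereas GFAP, SOX2, S100B, NES and OLIG2 each stayed under 1 FPKM. The 8 markers of immune, endothelial, neuronal and oligodendrocyte cells summed to 1.76 to 2.38 FPKM in a library, most of it SNAP25, with AIF1 at 0 in all 6. NC library 3 stood apart from the other 5: edgeR's common dispersion was 0.0391 with it and 0.00298 without it, and its scaling factor was 0.891 against 1.01 to 1.03. The counts of calls and the calls named below are therefore given with and without NC library 3. FPKM values scale with the library total and do not hold this factor, so on log2 normalized CPM, the scale of the fold changes, NC library 3 lies higher against the others than in FPKM.

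The 88 members together took 0.715%, 0.75% and 1.12% of the counts in NC libraries 1, 2 and 3, compared with 0.719%, 0.704% and 0.703% where the label was GRIK1 siRNA 1, 2 and 3. NC library 3 was thus the high one, and the other 5 lay between 0.703% and 0.75%. In bulk libraries a share of counts cannot tell a difference in every cell from a difference in some of the cells. On log2 normalized CPM (counts scaled by the TMM-adjusted library total), the median member was 0.78 higher in NC library 3 than in the mean of NC libraries 1 and 2, which is 1.72-fold, while the median over all genes tested was -0.03. The member's value was above that mean in 77 of 82 members. NC library 3 was the highest of the 6 libraries for 71 of 82 members (86.6%), beside 35.5% of all genes tested.

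**Figure D1:**
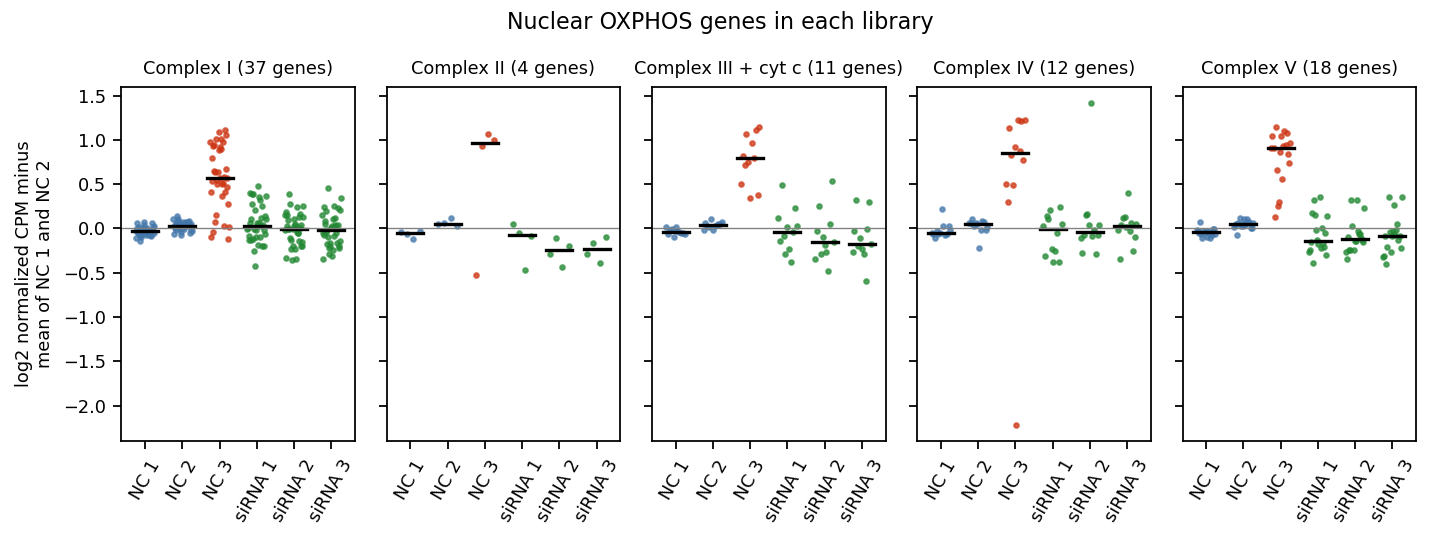
Each point is 1 tested member, plotted as log2 normalized CPM minus its mean in NC libraries 1 and 2, in each of the 6 libraries and separately for the 5 complexes; the bars are medians, and siRNA 1 to 3 are the libraries labelled GRIK1 siRNA. The medians of NC library 3 lie at 0.57 to 0.96, and the medians of the other 5 libraries lie between -0.24 and 0.05.

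The median deviation of NC library 3 was above 0 in every complex, at 0.57 (1.49-fold) for complex I, 0.96 (1.95-fold) for complex II, 0.80 (1.74-fold) for complex III, 0.85 (1.8-fold) for complex IV and 0.91 (1.88-fold) for complex V. Within complex I, the 7 core subunits, which carry the redox centres, were 0.42 higher (range -0.12 to 0.58), and the 30 accessory subunits, which surround that core, 0.65 higher (range -0.10 to 1.11). Small subunits led the list: COX7A2 was 1.23 higher, NDUFA4 and COX7C 1.22, ATP5F1E, the epsilon subunit of the ATP synthase head, 1.15, and UQCRQ of complex III 1.14. Only 5 members lay below the mean of the other NC libraries, named here after their values were seen: COX7A1 at -2.22, SDHA at -0.53, NDUFV1 at -0.12, NDUFA10 at -0.10 and NDUFA3 at -0.04. These are differences between single libraries, given with no test.

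Other genes of the same machinery moved with NC library 3 in different directions. The 13 subunits encoded by the mitochondrial genome took 4.54%, 4.54% and 2.92% of the counts in NC libraries 1, 2 and 3, compared with 4.0%, 4.21% and 4.24% in the labelled libraries, with a median of -0.55 in NC library 3. The 86 cytosolic ribosomal proteins, short and highly expressed genes outside the respiratory chain, took 5.24%, 5.5% and 9.37% (NC) against 4.86%, 4.8% and 4.79% (labelled). NC library 3 was therefore the lowest library for the mitochondrial genome share and the highest for the nuclear respiratory and the ribosomal protein shares.

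**Figure D2:**
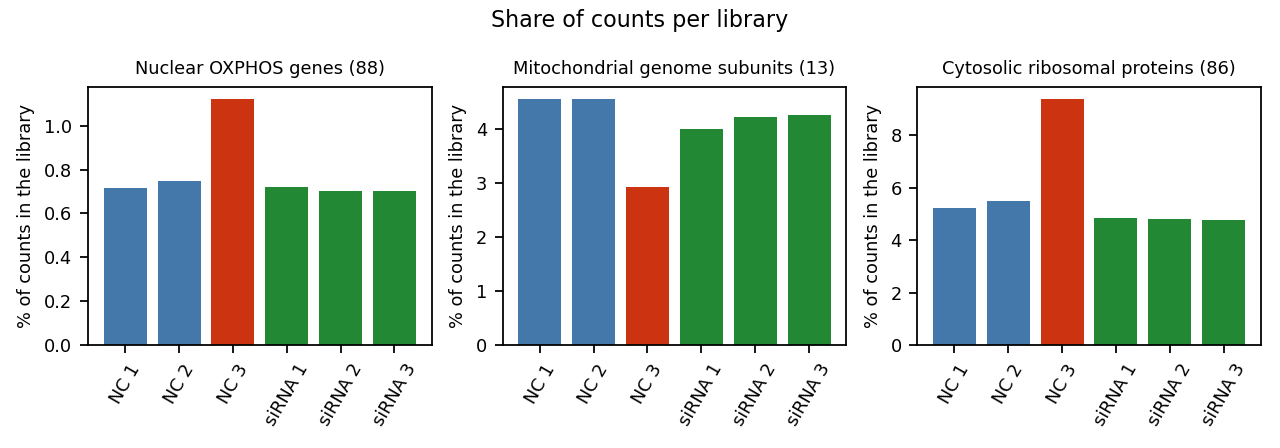
Bars give the percentage of each library's counts that fell on the 88 nuclear oxidative phosphorylation genes, the 13 mitochondrial genome subunits and the 86 cytosolic ribosomal proteins, 1 bar a library, from 0. NC library 3 (red) reads 1.12%, 2.92% and 9.37%, outside the range of the other 5 libraries in all 3 panels.

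The deviation of NC library 3 moved with the base composition of the transcripts. Among members whose longest transcript had at most 45% G and C, the median deviation was 0.92, against 0.73 between 45% and 55% and 0.49 above 55%. Over all genes tested the same bins gave 0.24, -0.07 and -0.38, so the median member lay above the median gene of its bin in each. Across members, Spearman's rho between GC content and the deviation of NC library 3 was -0.39 (n = 82 genes, which share their libraries and are not independent), and -0.32 across 15529 genes. Library 1 labelled GRIK1 siRNA deviated from libraries 2 and 3 in the other direction, with a rho of 0.50 across members and 0.25 across all genes. Its median deviation was 0.03 over the members, and the member farthest up was NDUFB7, a GC-rich complex I subunit, at 91.9 FPKM against 51.8 and 55.5. Members were also shorter than other genes, with a median exonic size of 2400 bases against 4070. Spearman's rho between exonic size and the deviation of NC library 3 was -0.26 across members and -0.01 across the 15529 genes. At most 1500 bases long, members had a median deviation of 0.90 and all genes tested one of -0.25. The part of base composition and size in the results was not tested beyond refitting with offsets for each, which left the median log2 fold change over members at -0.37 with the GC offset and -0.34 with the size offset.

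**Figure D3:**
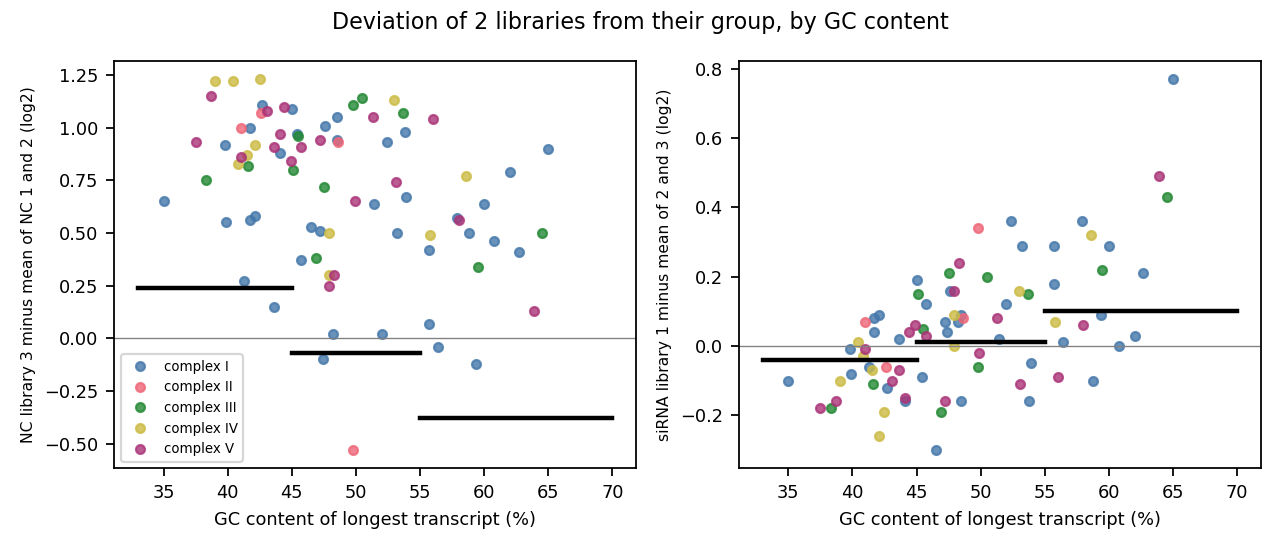
Each point is a tested member, with the GC content of its longest transcript on the x axis and, on the y axis, its log2 deviation in NC library 3 from NC libraries 1 and 2 (left) or in library 1 labelled GRIK1 siRNA from libraries 2 and 3 (right); black bars are the medians of all genes tested in 3 GC bins, and COX7A1, at -2.22 and -1.29, is left out. Members lie mostly above the bars on the left, and the bars run from 0.24 down to -0.38 on the left and from -0.04 up to 0.10 on the right.

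The comparison of the libraries labelled GRIK1 siRNA with the NC libraries asks whether transcript levels differ with the label. With all 6 libraries, 0 of 82 members passed an adjusted p under 0.05 in edgeR's quasi-likelihood test in either direction, beside 1.61% of all genes tested that passed as higher and 1.48% as lower, and 1.41% that passed with an absolute log2 fold change over 1. At an unadjusted p under 0.05 there were 16 members of 82, beside 25.1% of all genes, and DESeq2 passed 2 of 82 as lower, SDHC and UQCRFS1, beside 5.14% of all genes. Without the filter on low values, edgeR passed 3 of 85 as lower, SDHC, UQCRFS1 and COX7C, beside 1.98%. The estimates leaned down: 70 members were below 0 and 12 above, with a median log2 fold change of -0.35 against -0.02 over all genes tested. By complex the medians were -0.24 for I, -0.51 for II, -0.46 for III, -0.39 for IV and -0.47 for V. On log2 normalized CPM the labelled libraries lay wholly below the NC libraries for 22 members (26.8%), beside 19.0% of all genes, and wholly above for 3, NDUFA3, NDUFA9 and NDUFV3, beside 19.4%.

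Without NC library 3, most of that lean was gone. The median log2 fold change over members was -0.05, against 0.01 over all genes tested, and 63 of 82 members lay nearer 0 than with 6 libraries. The medians by complex were 0.02 for I, -0.15 for II, -0.13 for III, 0.01 for IV and -0.11 for V. The spread between the remaining libraries was also smaller, and 24 of 82 members (29.3%) passed an adjusted p under 0.05 in edgeR, beside 35.2% of all genes tested. Of these, 10 were higher in the labelled libraries, beside 16.9% of all genes, and 14 lower, beside 18.3%. None of the 24 passed an absolute log2 fold change of 1, beside 3.09% of all genes. With NC library 3 left out, the labelled libraries lay wholly below the NC libraries for 23 of 82 members, beside 4520 of 15870 genes. They lay wholly above for 15 members, beside 4447 of those genes. All 24 values below rest on 2 NC libraries and were named after they were seen.

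**Figure D4:**
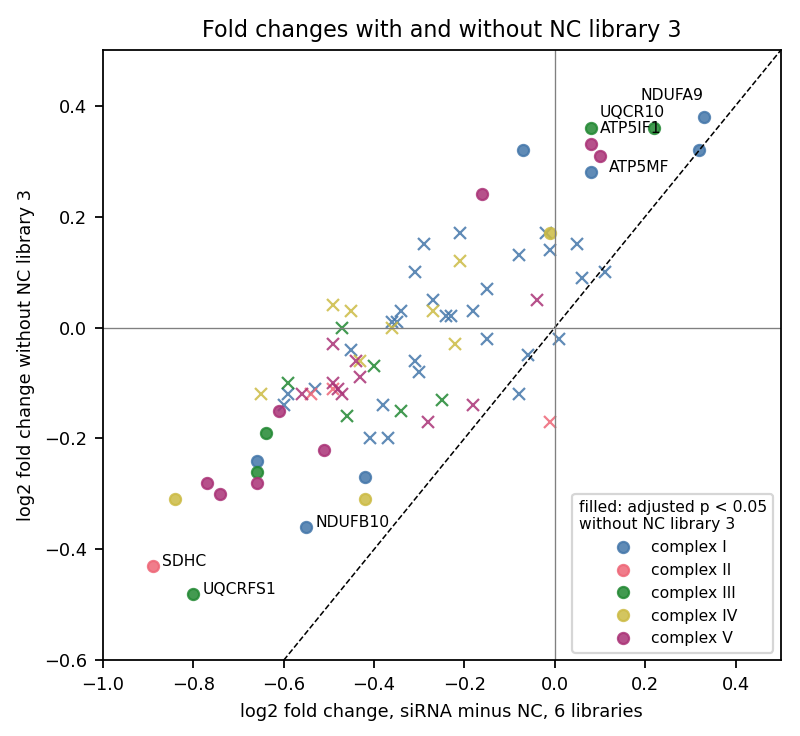
Each point is a tested member, with its log2 fold change (labelled GRIK1 siRNA minus NC) over 6 libraries on the x axis and without NC library 3 on the y axis; filled points passed an adjusted p under 0.05 without NC library 3, crosses did not, the dashed line marks equal values, and COX7A1, at 1.27 and 0.73, is left out. Most points lie above the dashed line, and 58 of 82 members had the same sign in both fits.

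In complex I, 7 of 37 members passed without NC library 3 (18.9%), beside 35.2% of all genes tested, and none of the 7 was a core subunit. NDUFB10, an accessory subunit of the membrane arm, stood at 46.1 and 45.2 FPKM in NC libraries 1 and 2, 57.1 in NC library 3, and 34.6, 36.2 and 37.8 in the labelled libraries. The labelled libraries were below all NC libraries, and the log2 fold change was -0.36 ± 0.078 (SE; edgeR, adjusted p = 0.00155) without NC library 3 and -0.55 ± 0.17 with it (adjusted p = 0.107). NDUFB6 (-0.24) and NDUFA11 (-0.27) were also lower, and stood at -0.66 and -0.42 with 6 libraries, where neither passed. NDUFA9, an accessory subunit at the junction of the arms, had 2.18, 2.21 and 2.15 FPKM (NC) against 2.95, 2.71 and 3.07 (labelled GRIK1 siRNA). NC library 3 was 0.15 above the other NC libraries on log2 normalized CPM, the groups did not overlap, and the log2 fold change was 0.38 ± 0.10 without NC library 3 (edgeR, adjusted p = 0.00515) and 0.33 ± 0.12 with it (adjusted p = 0.158). NDUFV3, which binds near the NADH-oxidising tip, was alike, at 4.67, 4.47 and 4.08 FPKM against 6.02, 5.55 and 5.88. Its log2 fold change was 0.32 in both fits (edgeR, adjusted p = 0.00757 without NC library 3 and 0.14 with it). NDUFA6 (0.32) and NDUFC1 (0.28) passed as higher only once NC library 3 was left out, and stood at -0.07 and 0.08 with it. NDUFS5, the most abundant member of all with a mean of 270.0 FPKM, had 213, 237 and 410.0 FPKM (NC) against 236, 256 and 268 (labelled GRIK1 siRNA). It did not pass in either fit, and its log2 fold change went from -0.29 to 0.15.

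Complex II, which is also succinate dehydrogenase of the citric acid cycle, has 4 members, and all 4 estimates were below 0 in both fits. That of SDHA was only -0.01 ± 0.19 with 6 libraries and changed sign under other settings. SDHC, a membrane anchor, had 32.8, 38.2 and 65.6 FPKM (NC) against 26.0, 26.7 and 27.5 (labelled GRIK1 siRNA). The labelled libraries were the lowest 3 and close together, and the log2 fold change was -0.43 ± 0.075 without NC library 3 (edgeR, adjusted p = 0.000217) and -0.89 ± 0.29 with it (adjusted p = 0.129), the lowest of any member. SDHB, the iron-sulfur subunit, did not pass, at 32.3, 34.8 and 56.3 FPKM against 32.9, 31.8 and 30.4, nor did the anchor SDHD, at 23.0, 23.9 and 41.3 against 22.6, 20.8 and 22.2.

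SDHA, the flavoprotein subunit, behaved unlike the other 3 in NC library 3. It had 371, 392 and 293 counts (NC) against 451, 362 and 376 (labelled GRIK1 siRNA). Its pseudogenes held more counts than the gene, at 260% of it over the 6 libraries. SDHAP1 had 255, 214 and 162 counts (NC) against 400, 388 and 400, and SDHAP4 had 628, 617 and 334 against 714, 761 and 741. SDHAP3 held 22 to 56 counts and SDHAP2 none. Reads can be split between such copies, so the value of SDHA is uncertain. Over all members, 216 pseudogenes of 50 members were in the table, 85 of them with counts and 22 at or above 0.5 FPKM, and in total they came to 0.503% to 1.58% of the member counts of a library.

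In complex III, 5 of 11 members passed without NC library 3 (45.5%), beside 35.2% of all genes tested. UQCRFS1, the Rieske iron-sulfur protein that takes electrons from ubiquinol, had 21.9, 23.0 and 34.5 FPKM (NC) against 17.6, 16.5 and 15.1 (labelled GRIK1 siRNA). The groups did not overlap, and its log2 fold change of -0.48 ± 0.073, a 0.716-fold level (edgeR, adjusted p = 6.29e-05), was the strongest call among the members without NC library 3. With 6 libraries it was -0.80 ± 0.23 (edgeR, adjusted p = 0.1), the smallest adjusted p of any member. The core protein UQCRC2 (-0.26) and UQCR11 (-0.19) were also lower, and stood at -0.66 and -0.64 with 6 libraries, where neither passed. UQCR10, a small subunit beside cytochrome c1, had 41.5, 42.4 and 60.9 FPKM (NC) against 60.4, 50.9 and 53.3 (labelled GRIK1 siRNA). Its labelled libraries lay between NC library 3 and the other NC libraries, and the log2 fold change was 0.36 ± 0.083 without NC library 3 (edgeR, adjusted p = 0.00256) and 0.08 ± 0.21 with it (adjusted p = 0.839). UQCRH, the hinge protein and the most abundant transcript of the complex, had 143, 152 and 281 FPKM against 147, 156 and 149, a log2 fold change of 0.00 ± 0.050 without NC library 3 and -0.47 ± 0.30 with it. UQCRHL, a closely similar copy of it, was higher at 0.36 ± 0.13 without NC library 3 (edgeR, adjusted p = 0.0337) and stood at 0.22 ± 0.17 with it (adjusted p = 0.432), and reads could be split between the copies. Cytochrome c, CYCS, did not pass, at 44.9, 48.7 and 72.9 FPKM against 43.3, 46.6 and 46.4.

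In complex IV, 3 of 12 tested members passed without NC library 3, a smaller share than the 35.2% of all genes tested. COX7C, a small membrane subunit, had 94.2, 103 and 202 FPKM (NC) against 77.3, 82.1 and 83.3 (labelled GRIK1 siRNA). NC library 3 was 1.22 above the other NC libraries on the log2 scale, and the labelled libraries were below all NC libraries, with a log2 fold change of -0.31 ± 0.054 without NC library 3 (edgeR, adjusted p = 0.000255) and -0.84 ± 0.33 with it (adjusted p = 0.172). COX5A, which faces the matrix, had 66.0, 71.0 and 74.3 FPKM against 56.5, 57.8 and 54.9. On log2 normalized CPM NC library 3 was 0.30 above the other NC libraries for COX5A, and the log2 fold change was -0.31 ± 0.060 without NC library 3 (edgeR, adjusted p = 0.000711) and -0.42 ± 0.13 with it (adjusted p = 0.113). COX6B1, which faces the intermembrane space, was higher by 0.17 ± 0.059 (edgeR, adjusted p = 0.0344) without NC library 3 and stood at -0.01 with it. COX6A1, the most abundant complex IV transcript, did not pass, at 125, 128 and 197 FPKM against 138, 143 and 139.

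Several complex IV subunits come in isoforms that differ between tissues, and the cells used the widespread ones. COX4I2, the lung isoform, COX6A2, a muscle isoform, and COX7B2 had 0 counts in all 6 libraries, so that COX4I1, COX6A1 and COX7B held 100% of their pairs' FPKM. The testis isoforms COX6B2, with 0 to 9 counts, and COX8C, with 0 or 1, were at most 0.248% and 0.151% of their pairs. COX4I1, COX7B and COX8A showed no call in either fit, and in NC library 3 they were 0.50, 0.87 and 0.77 higher than in the other NC libraries. The exception was COX7A1, an isoform known from heart and skeletal muscle, at 2.0, 1.38 and 0.12 FPKM (NC) against 1.24, 5.0 and 2.33 (labelled GRIK1 siRNA). It rested on few counts and varied within both groups, its share of the COX7A pair ran from 0.161% to 12.7%, and its log2 fold change, 1.27 ± 0.77 with 6 libraries, was the highest estimate of any member and did not pass (edgeR, adjusted p = 0.329). COX7A2, the partner, had 36.7, 35.2 and 74.2 FPKM against 30.8, 34.4 and 35.8.

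In complex V, 8 of 18 tested members passed without NC library 3 (44.4%), beside 35.2% of all genes tested. Of these, 5 were lower (27.8%) and 3 higher (16.7%), beside 18.3% and 16.9% of all genes. In the catalytic F1 head, 3 of 5 members were lower, beside the 18.3% of all genes, and none higher, and with 6 libraries 0 of 5 passed. ATP5F1B, the catalytic beta subunit and the most abundant complex V transcript, had 171, 178 and 318 FPKM (NC) against 150.0, 140.0 and 143 (labelled GRIK1 siRNA). The labelled libraries lay below all 3 NC libraries, with a log2 fold change of -0.30 ± 0.048, a 0.812-fold level (edgeR, adjusted p = 0.000101), without NC library 3 and -0.74 ± 0.29 with it (adjusted p = 0.17). ATP5F1A, the alpha subunit, had 18.9, 19.2 and 31.7 FPKM against 16.2, 16.2 and 15.5, and a log2 fold change of -0.28 ± 0.047 without NC library 3 (edgeR, adjusted p = 0.000148) and -0.66 ± 0.25 with it (adjusted p = 0.167). The epsilon subunit ATP5F1E had the same -0.28 without NC library 3 (edgeR, adjusted p = 0.00173) and -0.77 with it (adjusted p = 0.18). In the peripheral stalk, which holds the head still, ATP5PF (-0.22) and ATP5PB (-0.15) were lower and ATP5PO (0.24), the subunit that gives oligomycin sensitivity, was higher. With 6 libraries the values of ATP5PF and ATP5PB were -0.51 and -0.61, that of ATP5PO had the other sign, -0.16, and none of the 3 passed (edgeR, adjusted p = 0.19, 0.242 and 0.734).

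Among the 5 other membrane subunits tested, ATP5MF had 40.0, 42.2 and 53.4 FPKM (NC) against 53.6, 52.3 and 50.2 (labelled GRIK1 siRNA). The labelled libraries were above NC libraries 1 and 2, NC library 3 was 0.56 above those on log2 normalized CPM and the highest of the 6 on that scale, and the log2 fold change was 0.31 ± 0.057 without NC library 3 (edgeR, adjusted p = 0.000365) and 0.10 ± 0.17 with it (adjusted p = 0.736). ATP5IF1, the inhibitor that binds the head when the synthase would run backwards, had 20.4, 23.7 and 30.6 FPKM against 28.0, 28.2 and 28.5. The labelled libraries were tight and fell inside the NC range, with a log2 fold change of 0.33 ± 0.074 without NC library 3 (edgeR, adjusted p = 0.00221) and 0.08 ± 0.20 with it (adjusted p = 0.83). The c-ring is built from 1 protein made by 3 genes, and all 3 were in use: ATP5MC1 gave 15.3% to 20.9% of their summed FPKM, ATP5MC2 40.3% to 47.2% and ATP5MC3 32.4% to 44.4%. None of the 3 passed in either fit. In NC library 3 ATP5MC3 was 0.86 higher and ATP5MC1 and ATP5MC2 0.25 and 0.30 higher, so the ATP5MC3 share reached its highest, 44.4%, there. ATP5MGL, a copy of ATP5MG, had 0 to 5 counts and was not tested.

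**Figure D5:**
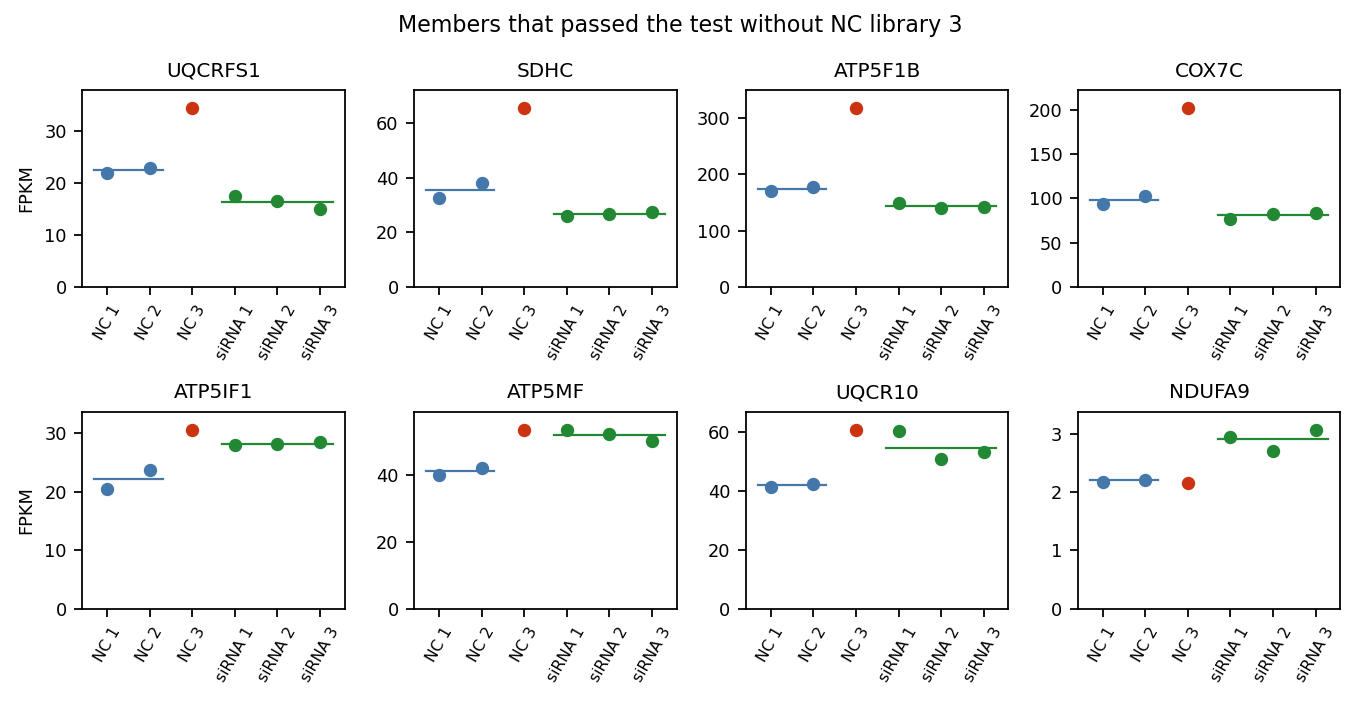
FPKM of 8 members that passed an adjusted p under 0.05 without NC library 3, in each of the 6 libraries, on axes from 0; lines are the means of NC libraries 1 and 2 and of the 3 libraries labelled GRIK1 siRNA. In the upper row (lower members) NC library 3, in red, is the highest point; in the lower row (higher members) its FPKM lies beside the labelled libraries for ATP5IF1, ATP5MF and UQCR10, and with the other NC libraries for NDUFA9.

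Promoters are shown for 3 members that were higher and 3 that were lower without NC library 3, to let their start regions be read side by side. Of the 88 members, 70 had a promoter in the RefSeq table (GRCh38.p14), which runs from 250 bases before to 50 bases after a listed start. Capitals mark matches, on either strand, to 4 motifs of factors known for respiratory genes. These were the NRF1 motif, GCGCA and GCGC with any 1 base between them, the ETS motif CCGGAAG read by GABPA, the YY1 motif, AAGATGG followed directly by CGG, and the CREB motif, TGACG followed directly by TCA. None of the 4 motifs contains another. The windows are chr1:28235874-28236173 on the plus strand for ATP5IF1, chr22:29767119-29767418 plus for UQCR10, chr12:4648864-4649163 plus for NDUFA9, chr19:29213102-29213401 minus for UQCRFS1, chr18:46104178-46104477 minus for ATP5F1A and chr5:86617691-86617990 plus for COX7C, each printed 5′ to 3′ on the gene's strand.
ATP5IF1: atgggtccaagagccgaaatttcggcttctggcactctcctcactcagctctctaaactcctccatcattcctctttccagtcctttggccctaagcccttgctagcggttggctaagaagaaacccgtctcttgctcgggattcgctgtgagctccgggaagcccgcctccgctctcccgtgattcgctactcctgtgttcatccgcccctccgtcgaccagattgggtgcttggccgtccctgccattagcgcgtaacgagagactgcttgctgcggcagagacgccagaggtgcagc
UQCR10: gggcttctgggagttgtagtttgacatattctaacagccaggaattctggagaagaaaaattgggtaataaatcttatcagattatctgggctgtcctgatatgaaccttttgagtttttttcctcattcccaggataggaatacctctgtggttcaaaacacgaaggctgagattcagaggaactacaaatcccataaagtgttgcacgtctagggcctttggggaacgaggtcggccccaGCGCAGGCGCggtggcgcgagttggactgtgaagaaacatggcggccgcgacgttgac
NDUFA9: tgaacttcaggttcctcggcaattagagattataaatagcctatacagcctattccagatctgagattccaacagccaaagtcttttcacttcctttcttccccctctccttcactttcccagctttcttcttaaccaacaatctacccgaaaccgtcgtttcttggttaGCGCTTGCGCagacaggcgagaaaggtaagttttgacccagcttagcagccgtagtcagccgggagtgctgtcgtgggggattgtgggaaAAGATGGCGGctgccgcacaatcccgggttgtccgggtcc
UQCRFS1: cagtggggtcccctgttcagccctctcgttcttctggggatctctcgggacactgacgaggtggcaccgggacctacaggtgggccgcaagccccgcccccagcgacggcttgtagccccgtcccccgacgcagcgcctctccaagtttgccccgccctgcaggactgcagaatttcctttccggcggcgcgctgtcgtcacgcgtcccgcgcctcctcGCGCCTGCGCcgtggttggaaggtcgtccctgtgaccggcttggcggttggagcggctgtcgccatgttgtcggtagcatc
ATP5F1A: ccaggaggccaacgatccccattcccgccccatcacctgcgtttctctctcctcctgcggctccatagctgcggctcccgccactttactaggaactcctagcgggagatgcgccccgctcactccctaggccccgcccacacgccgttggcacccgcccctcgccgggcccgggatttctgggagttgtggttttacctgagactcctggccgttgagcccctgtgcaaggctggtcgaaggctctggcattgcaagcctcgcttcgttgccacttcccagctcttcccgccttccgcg
COX7C: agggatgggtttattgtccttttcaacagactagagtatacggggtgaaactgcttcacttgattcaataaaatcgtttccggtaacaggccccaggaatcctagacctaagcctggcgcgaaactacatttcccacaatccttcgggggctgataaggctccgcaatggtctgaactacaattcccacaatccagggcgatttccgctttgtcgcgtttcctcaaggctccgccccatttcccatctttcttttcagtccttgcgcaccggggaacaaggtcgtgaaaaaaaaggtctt

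The NRF1 motif stood at position -8 from the start in UQCR10, -80 in NDUFA9 and -31 in UQCRFS1, so it was in promoters of both directions, and NDUFA9 also held the YY1 motif at 11. The windows shown for ATP5IF1, ATP5F1A and COX7C held none of the 4, and the other listed start of ATP5F1A held the ETS motif. Over all start sites listed for a gene, 17 of 70 members (24.3%) held the NRF1 motif, beside 6.98% of 27305 genes. The ETS motif was in 21 members (30%) beside 12.2%, the YY1 motif in 8 (11.4%) beside 1.46%, and the CREB motif in 5 (7.14%) beside 2.25%. Any of the 4 was in 42 members (60%) beside 20.1%. Of the members that passed without NC library 3 and had a promoter, 5 of 8 higher ones and 5 of 12 lower ones held any of the 4. These are matches of letters, not measured binding.

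Genes that build or regulate the complexes were read from lists of known factors. Among 13 transcription regulators of respiratory genes, 2 were lower with 6 libraries (15.4%), beside 1.48% of all genes tested. PPARGC1A, the coactivator PGC-1alpha, had 1.19, 1.22 and 1.0 FPKM (NC) against 0.46, 0.49 and 0.59 (labelled GRIK1 siRNA), and ESRRA, the nuclear receptor it coactivates, had 15.5, 14 and 15.1 against 9.61, 9.22 and 8.54. The groups did not overlap for either gene, and NC library 3 lay near its group. The log2 fold change of PPARGC1A was -1.23 ± 0.16 (edgeR, adjusted p = 0.0261) and -1.26 ± 0.15 without NC library 3 (adjusted p = 6.29e-06), and that of ESRRA was -0.80 ± 0.13 (adjusted p = 0.031) and -0.72 ± 0.086 (adjusted p = 5.23e-06). Leaving out any other library left 0 of all genes with an adjusted p under 0.05, and the adjusted p then ran from 0.0677 to 0.206 for PPARGC1A and from 0.0698 to 0.219 for ESRRA. Without NC library 3, 7 of the 13 regulators passed (53.8%), beside 35.2% of all genes tested. In that fit TFAM (-0.31) and TFB1M (-0.37), which act on the mitochondrial genome, were also lower, and PPRC1 (0.41), GABPB1 (0.42) and CREB1 (0.21) were higher. With 6 libraries these 5 did not pass, at -0.62, -0.54, 0.73, 0.15 and 0.09 in the same order. NRF1, GABPA, YY1, PPARGC1B, TFB2M and POLRMT did not pass in either fit, with log2 fold changes without NC library 3 of -0.01, -0.08, 0.08, 0.20, -0.17 and -0.05.

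Of the assembly factors, SDHAF4, which helps SDHA into complex II, was lower with 6 libraries, at 7.95, 8.49 and 10.2 FPKM (NC) against 5.16, 4.24 and 4.21. Its log2 fold change was -1.07 ± 0.20 (edgeR, adjusted p = 0.0408) and -0.88 ± 0.15 without NC library 3 (adjusted p = 0.0002), and leaving out another library gave adjusted p-values of 0.0697 to 0.233. It was the 1 of 4 complex II factors to pass in either fit. In the main fit with 6 libraries, 3.09% of all genes tested passed. None of the 14 complex I, 6 complex III, 22 complex IV and 3 complex V factors did. Other fits of the 6 libraries were read only for COX11, COX15, ECSIT and FOXRED1 among these. DESeq2 passed all of them, COX11 and ECSIT as lower and COX15 and FOXRED1 as higher. Without the filter on low values, edgeR passed COX11 and ECSIT as lower, but not COX15 or FOXRED1. Without NC library 3, 2 complex I factors were higher and 4 lower (42.9% together), beside 35.2% of all genes. Among them were FOXRED1 (0.41 against 0.51 with 6 libraries), ECSIT (-0.45 against -0.75) and NDUFAF3 (-0.55 against -0.75). In the same fit 2 complex IV factors were higher and 2 lower (18.2% together), beside the same 35.2%. These included COX15 (0.39 against 0.43), COX11 (-0.53 against -0.73) and TACO1 (-0.49 against -0.62). Of 4 further respiratory chain genes with symbols outside the rule, 0 passed in the main fit with 6 libraries, beside the same 3.09%. Without NC library 3, 2 of the 4 were lower, beside 18.3% of all genes. These were HIGD2A (-0.56) and HIGD1A (-0.30), at -0.66 and -0.87 with 6 libraries. HIGD2A also passed as lower with 6 libraries in DESeq2, without the filter, and with a mean of at least 1 FPKM.

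Of the 13 subunits encoded by the mitochondrial genome, 0 passed with 6 libraries, with a median log2 fold change of -0.08. Without NC library 3, 9 of 13 were lower, beside 18.3% of all genes, and none higher, beside 16.9%, with a median of -0.18. MT-CYB, the cytochrome b of complex III, had 2430, 2310 and 1810 FPKM (NC) against 1890, 1910 and 1900 (labelled GRIK1 siRNA), a log2 fold change of -0.34 ± 0.043 without NC library 3 (edgeR, adjusted p = 9.95e-06). On log2 normalized CPM, MT-CYB in NC library 3 was -0.21 from the other NC libraries, and with 6 libraries its log2 fold change was -0.28 ± 0.14 (adjusted p = 0.263). MT-CO1 did not pass, at 10400, 10500 and 6410 FPKM against 9970, 10000 and 10100. For the ribosomal proteins the counts were 0 of 82 with 6 libraries, at a median of -0.58, and 59 lower and 0 higher without NC library 3, beside the same 18.3% and 16.9%, at a median of -0.19.

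Whether reads were counted by strand is not given in the sources used here. Of the members, 28 overlapped another gene at or above 0.5 FPKM, 13 on the same and 23 on the opposite strand, with some in both counts. ATP5PF, for example, lies head to head with GABPA (10.1 FPKM), and ATP5PB beside WDR77 (12 FPKM). Reads of genes that overlap on opposite strands cannot be told apart where strand was not used. For overlaps on the same strand, strand does not separate the reads in either case. The values of these members carry that limit.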

How the data were processed

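Total RNA of 6 U87-MG libraries was sequenced after a VAHTS library kit. The submitters' processing notes name cutadapt 1.9.1, HISAT2, HTSeq and GRCh38; the authors deposited 1 table with raw counts per gene and FPKM values, and all deposited FPKM values (100.0%) equal the count divided by exonic size and by the library's summed counts. All count and FPKM columns matched 1 sample each, and samples were grouped by title. The gene members and lists were chosen with earlier results of these data known.

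Counts were fitted with edgeR 4.0.16 (R 4.3.3; TMM scaling, quasi-likelihood test, no block) over the 15870 genes whose mean FPKM reached 0.5, and p-values were adjusted by Benjamini-Hochberg over all of them; a call is an adjusted p under 0.05. Log2 fold changes are labelled GRIK1 siRNA minus NC, and the SE is the log2 fold change divided by the square root of the F statistic. Members were described by counts and medians, with no set test. Named were, in each complex, the largest rise, the largest fall, the most abundant member, members under the filter, isoform pairs, ATP5IF1, and up to 3 genes a list by smallest p; members that passed without NC library 3 were named after their values were seen. Library deviations use log2 normalized CPM with a prior count of 2. GC content is that of the longest GENCODE transcript, known for 82 of 82 members and 15529 of 15870 genes.

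Alternatives were median-of-ratios scaling, library totals alone, no filter, a mean of at least 1 FPKM, DESeq2 1.42.0, a replicate block, an exonic size correction (lowess, span 0.3) and each library left out. The fits that combine leaving out NC library 3 with another setting, and the GC corrections, were added after seeing the data. On counts simulated from the 6 libraries over 15870 genes, the fit recovered 64 of 107 genes planted at a log2 fold of 1. It recovered 93 of 93 planted at 2, with 12 false calls. Without NC library 3 it recovered 94 of 94 and 106 of 106, with 7 false calls. For each gene the simulated libraries shared the same spread, and folds were planted only in the more abundant genes. No simulated library stood apart as NC library 3 did. The recovery and false calls therefore cannot show how the fits behave with such a library. Members that passed without NC library 3 had log2 fold changes from -0.48 to 0.38, and recovery at such sizes was not tested. No 2 libraries agreed within sampling noise.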

Additional observations from a re-analysis of the deposited data

How the results depend on the processing

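With 6 libraries, 0 members passed as higher and 0 as lower in the main fit and under the scaling, FPKM filter, size and GC alternatives; 3 passed as lower with no filter and 2 with DESeq2. Leaving out each library in turn gave 0 to 10 members higher and 0 to 14 lower, and every call came from the fit without NC library 3. That fit without NC library 3 gave 11 higher and 14 lower with the size correction or median-of-ratios scaling, 7 and 9 with DESeq2, 12 and 12 with library totals alone, and 10 and 18 with the GC correction. Of its 24 calls, these fits shared 21, 24, 16, 22 and 23 in the order named. Genes passing an adjusted p of 0.05 over the whole table were 490 with 6 libraries, 5591 without NC library 3 and 0 without any other library, where 3 to 35 members had an unadjusted p under 0.05. Leaving out NC library 3 took the median of complex I from -0.24 to 0.02 and that of complex IV from -0.39 to 0.01.

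The estimates of some members changed sign. With library totals alone ATP5MC1 was 0.05, COX6B1 0.09, NDUFA6 0.05 and SDHA 0.07; with a mean of at least 1 FPKM, COX6B1 and SDHA were 0.01; with the size correction, ATP5MC1 was 0.06 and COX6B1 0.01. With the replicate block COX6B1 was 0.00, NDUFA6 0.01 and SDHA 0.00. Over the fits that left out each library, with a change of sign in each, the ranges were -0.08 to 0.33 for ATP5IF1, -0.09 to 0.05 for ATP5MC1, -0.01 to 0.31 for ATP5MF, -0.34 to 0.24 for ATP5PO, -0.36 to 0.12 for COX6A1, -0.12 to 0.17 for COX6B1, -0.41 to 0.03 for COX8A, -0.27 to 0.32 for NDUFA6, -0.02 to 0.28 for NDUFC1, -0.50 to 0.15 for NDUFS5, -0.17 to 0.10 for SDHA, -0.05 to 0.36 for UQCR10 and -0.67 to 0.00 for UQCRH. In the fits without NC library 3 combined with another setting, the values of changed sign were 0.03, 0.05, 0.08 or 0.11 for ATP5MC1, 0.21, 0.25, 0.27 or 0.31 for ATP5PO, 0.01 for COX4I1, 0.09, 0.13 or 0.15 for COX6A1, 0.17, 0.19 or 0.20 for COX6B1, 0.00, 0.03 or 0.07 for COX7B, 0.03, 0.06 or 0.09 for COX8A, 0.30, 0.32 or 0.35 for NDUFA6, 0.07, 0.13, 0.15 or 0.17 for NDUFS5 and 0.01 or 0.03 for UQCRH. The cause was not tested.

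The replicate number used as a block gave 0 members and 0 genes with an adjusted p under 0.05 (9 members and 3324 genes at an unadjusted p under 0.05). Deviations from the group mean correlated at -0.07, 0.04 and -0.04 between same-numbered libraries. Between differently numbered libraries the correlations ran from -0.06 to 0.08. With NC library 3 so far from its group, these values cannot show whether same-numbered libraries shared a culture or batch. Limits are the 3 libraries a group, the single NC library that sets most member estimates, 2 NC libraries without it, an unstated strand setting and pseudogene copies. A p that misses the threshold does not show that levels were alike.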
